A study of Mus musculus with 4 samples.

Results

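Extracellular ATP and adenosine act on cell surface receptors, and 10 mouse genes of this system are described here out of 27179 gene identifiers counted. They were chosen by symbol through their Entrez Gene identifiers. They are the ATP-gated channel genes P2rx4, P2rx7 and P2rx6, the nucleotide receptor genes P2ry1, P2ry6 and P2ry14, the adenosine receptor genes Adora1 and Adora2a, and the ectonucleotidase genes Entpd1 and Nt5e. RNA of the spinal cord at lumbar level L4-6 of male C57BL/6J mice was poly(A)-selected and sequenced as 4 libraries. The age of the mice is not given in the labels. By their titles, 2 belonged to a group with a cuff on the sciatic nerve and 2 to a sham group. Both groups were taken 28 days after surgery, and no genetic change or drug is given for either. A cuff constricts the nerve and is a model of persistent neuropathic pain, while a sham operation leaves the nerve without a cuff. The file names give the reverse of the title for all 4 libraries, so each direction given here follows the titles and would be turned round if the file names hold. Separate animals are not stated for the libraries, and the p-values then reflect the spread between libraries alone.

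In the dorsal horn, ATP released by injured or active cells opens P2X channels and activates G protein-coupled P2Y receptors on neurons and glia. The enzyme NTPDase1 (CD39, from Entpd1) cuts ATP and ADP to AMP, and ecto-5′-nucleotidase (CD73, from Nt5e) cuts AMP to adenosine. Adenosine then acts on its own receptors, of which A1 dampens transmission in the dorsal horn. P2X4 and P2X7 on microglia, the resident macrophages of the cord, are widely studied in neuropathic pain models.

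None of the 10 genes passed the test between groups. All 10 passed the filter on low counts and were tested among 16918 genes, of which 4.11% were called at an adjusted p under 0.05 (edgeR quasi-likelihood test, Benjamini-Hochberg). Of the members, 6 had a positive and 4 a negative log2 fold change, with a median of 0.01, beside 0.02 over all tested genes. P2ry1 alone had an unadjusted p under 0.05, which 21.5% of all tested genes had. DESeq2 (6.42% of all genes called) and limma-voom (3.85%) also called 0 members. The groups did not overlap for 4 members (P2ry1, P2ry14, Adora1 and Entpd1), beside 54.1% of all tested genes. With 2 libraries a group, an exact two-sided permutation test of a single gene cannot give a p under 0.333, so the tests rest on spread shared across genes.

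**Figure D1:**
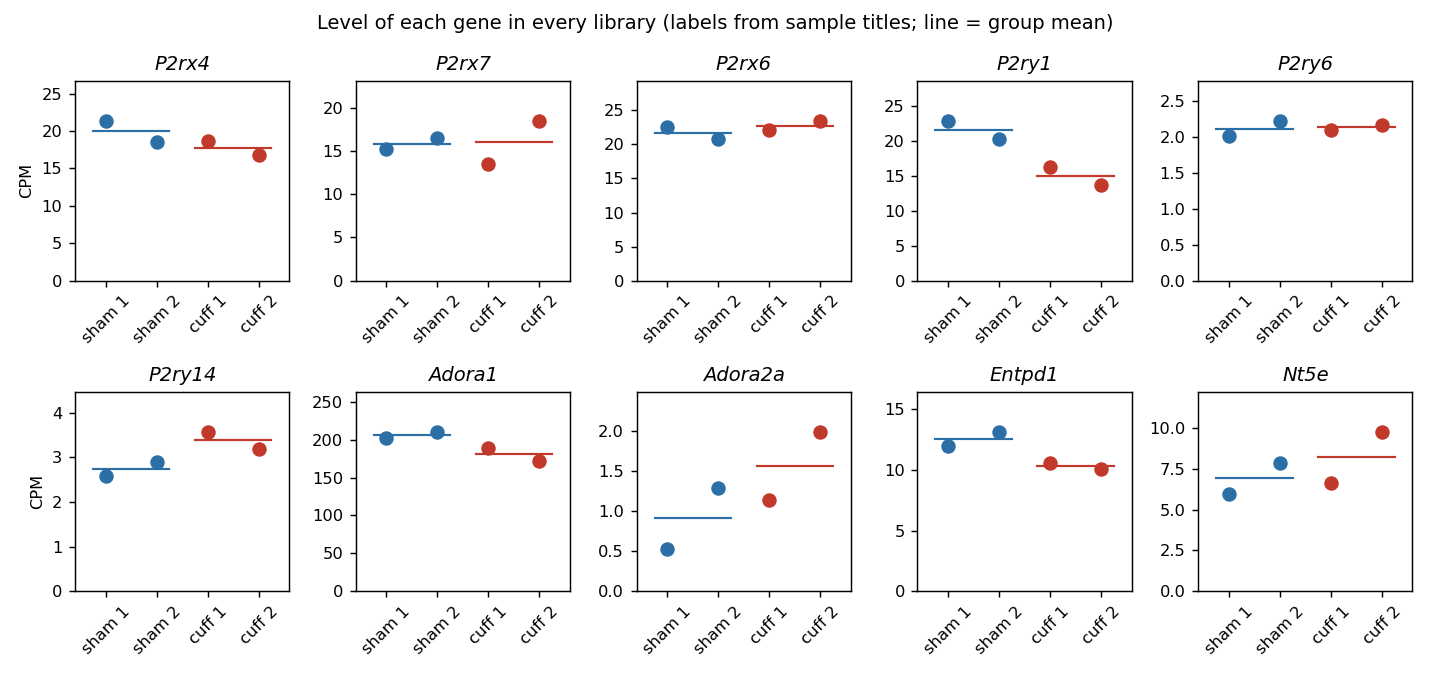
Level in CPM, the count relative to library size (linear axes from 0), of each of the 10 genes in every library, with blue points for sham-labelled libraries, red points for cuff-labelled libraries and a line at each group mean. P2ry1 lay at 16.3 and 13.7 CPM in the cuff-labelled libraries and at 22.9 and 20.4 in the sham-labelled ones, while P2rx7 and P2ry6 had nearly equal group means.

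Library facts bear on all of these values. Gene counts summed to between 32936609 and 39461573 per library. The cord was recognisable by its markers, with means over the 4 libraries of 2873 CPM for the neuronal gene Snap25, 18285 for the myelin gene Mbp, 2229 for the astrocyte transporter gene Slc1a2 and 85.7 for the microglial receptor gene Csf1r. No microglial, oligodendrocyte or neuronal marker was called (0 of 18, 0 of 12 and 0 of 14), and 1 of 12 astrocyte genes (Aqp4) and 1 of 9 oligodendrocyte precursor genes (Ptprz1) fell. Of 15 endothelial genes 9 rose, and so did 2 of 10 pericyte and smooth muscle genes (Pdgfrb and Vtn), 2 of 13 tested blood and bone marrow genes (Mpo and Ppbp) and 1 of 10 peripheral macrophage genes (Ly6c2). Of 10 Schwann cell genes Sox10 rose and Cdh19 fell, and no gene was called among 14 leptomeningeal, 14 skeletal muscle and 8 tested dorsal root ganglion genes. The second cuff-labelled library stood apart in the lists from outside the cord. It had the highest summed CPM for the lists from outside the cord, such as 895 for skeletal muscle (182 to 316 in the others) and 3223 for Schwann cells (588 to 1218 in the others). The nociceptor genes Scn10a and Mrgprd had 213 and 19 counts there and 0 in the other 3 libraries. Across genes, chi-square over degrees of freedom was 24.2 between the cuff-labelled libraries and 34.9 between the sham-labelled ones. Against the sham-labelled libraries it was 69.1 and 61.7 for the second cuff-labelled library and 29.9 and 36.6 for the first. The called marker genes were named after their values were seen.

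**Figure D2:**
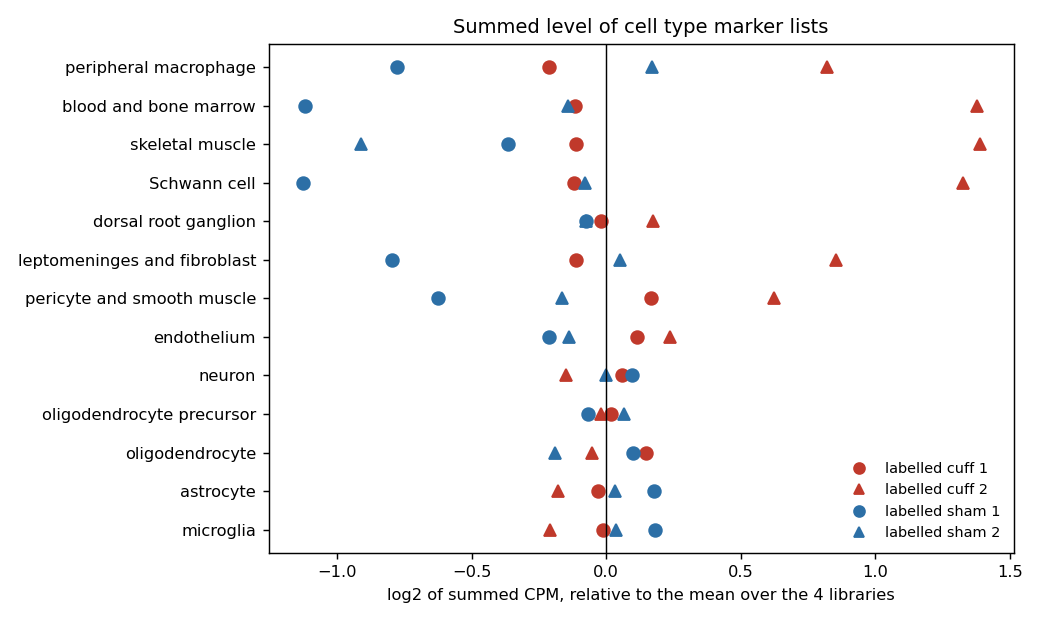
Summed CPM of each cell type marker list in the 4 libraries, as log2 relative to the mean over the libraries, with circles for replicate 1 and triangles for replicate 2. The second cuff-labelled library lies farthest right for muscle, Schwann cell, blood, macrophage and leptomeningeal lists and farthest left for the microglial and astrocyte lists.

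Among the ATP-gated channels, P2rx4 encodes the channel induced in spinal microglia after nerve injury in rodents. It lies on mouse chromosome 5, 122707518 to 122729739 (mm10). Of its span, 51.1% lies in Camkk2, which is on the other strand and shares 0 exon bases with it in GENCODE M21. Camkk2 was at 65.6 to 75.8 CPM, and the strand setting of the counting is not given. The level of P2rx4 was 18.6 and 16.7 CPM in the cuff-labelled libraries and 21.3 and 18.6 in the sham-labelled ones. The groups met at the first cuff-labelled library and the second sham-labelled one, which were nearly equal. The group means were 17.7 ± 1.35 CPM (SD, n = 2) and 20.0 ± 1.95, and the log2 fold change was -0.17 ± 0.16 (SE, adjusted p = 0.557, edgeR). Its 95% interval ran from -0.51 to 0.16, which corresponds to 0.705 to 1.11 of the sham-labelled level. In bulk tissue, fewer cells of a type and less RNA per cell cannot be told apart.

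P2rx7 encodes a channel that needs high ATP and is linked to release of interleukin-1β from microglia. It lies 15.2 kb from P2rx4 on chromosome 5 (122643927 to 122692336), with no protein-coding gene between them. In GENCODE M21 it shares 119 exon bases (1.99% of its own) with the microRNA gene Mir8115 on the same strand, which was not among the genes counted. P2rx7 was at 13.5 and 18.5 CPM in the cuff-labelled libraries and at 15.2 and 16.5 in the sham-labelled ones. Both extremes were cuff-labelled libraries, with the sham libraries in between. The log2 fold change was 0.02 ± 0.18 (adjusted p = 0.974), with a 95% interval from -0.36 to 0.39. Its sign depended on scaling and on single libraries, and was -0.0016 with RLE scaling and -0.23 without the second cuff-labelled library.

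P2rx6 encodes a subunit that forms few channels by itself and can assemble with other P2X subunits (chromosome 16, 17561867 to 17572015). It was at 22.1 and 23.4 CPM in the cuff-labelled libraries and at 22.5 and 20.8 in the sham-labelled ones. The range over the 4 libraries was narrow and the groups overlapped. The log2 fold change was 0.07 ± 0.15 (adjusted p = 0.828), with an interval from -0.24 to 0.38, and it was -0.10 when libraries were corrected for the length and GC content of transcripts.

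Among the P2Y receptors, P2ry1 stood nearest to the threshold. It encodes an ADP receptor found on neurons and glia and in platelets (chromosome 3, 61002785 to 61008982). It had 588 and 466 counts in the cuff-labelled libraries and 876 and 787 in the sham-labelled ones. This corresponds to 16.3 and 13.7 CPM against 22.9 and 20.4, and the groups did not overlap. The group means were 15.0 ± 1.87 and 21.6 ± 1.78 CPM. The log2 fold change was -0.53 ± 0.16 (unadjusted p = 0.0041, adjusted p = 0.0698), with a 95% interval from -0.87 to -0.19, which corresponds to 0.55 to 0.88 of the sham level.

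The value of P2ry1 was negative in all 13 alternatives and passed the test in 2 of them. One was the fit with no filter on low counts (-0.53, adjusted p = 0.0341, edgeR, where 6.03% of 21414 genes were called). The other was the fit without the first cuff-labelled library (-0.72), which leaves a single cuff-labelled library. For the median gene that fit takes the spread wholly from what is shared across genes, so its pass is not support of the same kind. Over all alternatives its adjusted p ran from 0.023 to 0.654. After correction for length and GC the value was -0.39 (adjusted p = 0.169). The summed level of the astrocyte list was 8820 and 7970 CPM in the cuff-labelled libraries and 10192 and 9231 in the sham-labelled ones. That of the microglial list was 551 and 480 against 629 and 570. In these lists 8 of 12 astrocyte and 13 of 18 microglial genes had a negative log2 fold change, no gene of either list was at 0, and their part in the P2ry1 value was not tested.

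P2ry6 encodes the UDP receptor through which microglia are triggered to engulf damaged cells (chromosome 7, 100937630 to 100975498). It had 76, 74, 77 and 86 counts in the first and second cuff-labelled libraries and labelled sham, or 2.11 and 2.17 against 2.01 and 2.23 CPM. The cuff-labelled libraries lay between the sham-labelled ones. The log2 fold change was 0.01 ± 0.35 (adjusted p = 0.99). The 95% interval was wide, from -0.72 to 0.74, and the counting error by itself, an exact Poisson interval, ran from 58.1 to 92.9 around 74 counts.

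P2ry14 encodes a receptor for UDP-glucose and other UDP-sugars (chromosome 3, 59114623 to 59153492). It was at 3.58 and 3.19 CPM in the cuff-labelled libraries and at 2.59 and 2.90 in the sham-labelled ones. The groups did not overlap, but the gap between them was smaller than the distance between the cuff-labelled libraries. The log2 fold change was 0.30 ± 0.30 (adjusted p = 0.604), with an interval from -0.33 to 0.94. It had the longest transcript (7795 nt) and the lowest GC content (39.4%) of the 10 genes, and its value after correction for length and GC moved to 0.76 (adjusted p = 0.21). The whole gene lies inside Med12l, which is on the other strand and shares 0 exon bases with it in GENCODE M21. Med12l itself was at 28.9 and 20.8 CPM in the cuff-labelled libraries and at 31.8 and 54.1 in the sham-labelled ones, and the sources used here do not say whether counting used strand.

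Adora1 encodes the A1 adenosine receptor, which inhibits transmitter release in the dorsal horn (chromosome 1, 134199215 to 134235457). In GENCODE M21 it shares 1162 exon bases (20.1% of its own) with Mybph on the other strand. Mybph was at 0.052 to 0.176 CPM, and whether reads in the shared bases were counted for Adora1 is not known, since the strand setting is not given. Adora1 was the most abundant member, at 189 and 172 CPM in the cuff-labelled libraries and at 203 and 211 in the sham-labelled ones. The groups did not overlap. The means were 180 ± 11.9 and 207 ± 5.68 CPM, and the log2 fold change was -0.19 ± 0.13 (adjusted p = 0.405). Its interval, from -0.47 to 0.08, lay inside a 1.5-fold change in either direction. Of 13 alternatives 1 called it, the length and GC correction together with the replicate number as a block (-0.30, adjusted p = 0.0482, where 3.34% of genes were called), and over all 13 the adjusted p ran from 0.0482 to 0.938.

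Adora2a encodes an adenosine receptor known for its high level in striatum and its actions on blood vessels and immune cells (chromosome 10, 75316877 to 75334792). It had 41 and 68 counts in the cuff-labelled libraries and 20 and 50 in the sham-labelled ones, or 1.14 and 1.99 against 0.523 and 1.30 CPM. The groups overlapped, with the second libraries of both groups above the first. The exact Poisson intervals of the sham-labelled libraries, 12.2 to 30.9 and 37.1 to 65.9 counts, did not overlap. The fitted log2 fold change was 0.78 ± 0.50 (adjusted p = 0.386), the largest in size among the members. Its interval from -0.27 to 1.83 was also the widest, and the values without single libraries ran from 0.25 to 1.57.

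Entpd1, the NTPDase1 gene, is expressed by microglia and blood vessels (chromosome 19, 40612366 to 40741602). It was at 10.5 and 10.1 CPM in the cuff-labelled libraries and at 11.98 and 13.2 in the sham-labelled ones, without overlap. The means were 10.3 ± 0.323 and 12.6 ± 0.837 CPM. The log2 fold change of -0.29 ± 0.18 did not pass (adjusted p = 0.373; 0.332 to 0.876 over the alternatives), and its interval ran from -0.66 to 0.09. It was -0.13 with the length and GC correction. The microglial list was lower in the same libraries, as given above. The endothelial list was higher (368 and 401 against 293 and 309 CPM), with 13 of its 15 genes positive and 2 negative. The negative ones were Ly6c1 and Slc2a1, the gene of the list with the highest CPM (90.4 and 95.5 against 112 and 113). The part of either list was not tested.

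Nt5e, the CD73 gene, lies on chromosome 9 (88327609 to 88372089). It was at 6.63 and 9.76 CPM in the cuff-labelled libraries and at 5.96 and 7.85 in the sham-labelled ones. The groups overlapped, and the log2 fold change was 0.25 ± 0.24 (adjusted p = 0.589), with an interval from -0.25 to 0.74. Without the second cuff-labelled library it was -0.06. Nt5e and Adora2a had the same order of libraries, from the second cuff-labelled one through the second sham-labelled one and the first cuff-labelled one to the first sham-labelled one, an order that 5.88% of all tested genes had. The summed leptomeningeal list had that order too, at 865, 495, 443 and 275 CPM and so did the Schwann cell list, at 3223, 1218, 1184 and 588 CPM, and the peripheral macrophage list, at 68.4, 43.5, 33.4 and 22.6 CPM. These were 3 of the 13 marker lists. No gene of these lists was at 0, and their part in the values of Nt5e and Adora2a was not tested.

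**Figure D3:**
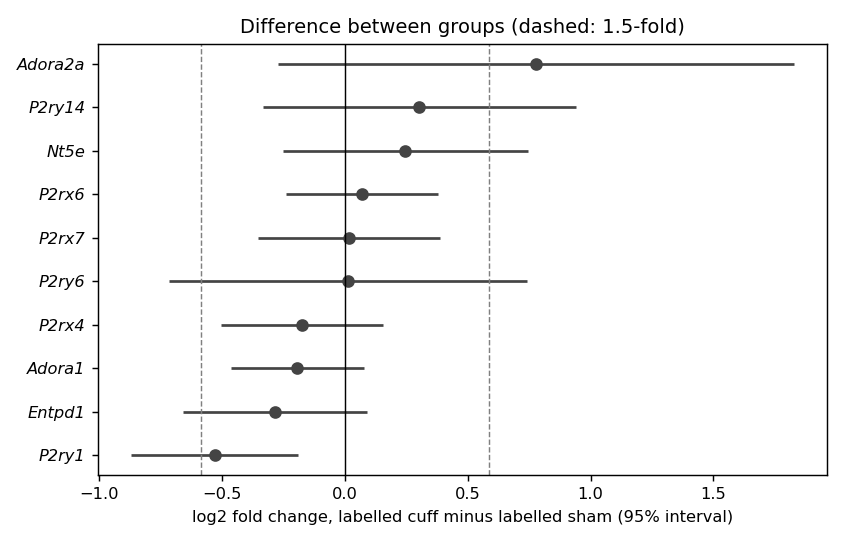
Log2 fold change of each gene, labelled cuff minus labelled sham, with its 95% interval from the edgeR fit (n = 2 libraries per group) and dashed lines at a 1.5-fold change. The intervals of P2rx4, P2rx7, P2rx6 and Adora1 lie inside the dashed lines, and that of P2ry1 is the only one that leaves out 0.

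For 4 members (P2rx4, P2rx7, P2rx6 and Adora1) the 95% interval lay inside a 1.5-fold change in either direction. For 9 it lay inside a 2-fold change, the exception being Adora2a. These intervals use the spread shared across genes by edgeR and are not corrected for the number of genes.

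Levels were compared between members per length, as CPM per kilobase of the longest transcript. Adora1 led with 34.6 to 42.4 CPM per kilobase over the 4 libraries, and P2rx6 followed with 6.16 to 6.93, with no overlap between them. P2rx4 came next with 4.30 to 5.48, below P2rx6 in every library. P2ry1 (3.51 to 5.89), P2rx7 (2.74 to 3.74), Entpd1 (2.39 to 3.12) and Nt5e (1.49 to 2.44) came after P2rx4, and each of these 5 overlapped its neighbour in the order. P2ry6 was lower, at 1.03 to 1.14. Adora2a (0.201 to 0.768) and P2ry14 (0.332 to 0.459) were lowest, below P2ry6 in every library, and overlapped each other. In CPM, without division by length, P2ry14 had a mean of 3.07, above P2ry6 (2.13) and Adora2a (1.24). Its place thus depends on the transcript of 7795 nt taken for its length. Counts per gene do not show which transcript is expressed, and the same limit holds for the shares given next.

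**Figure D4:**
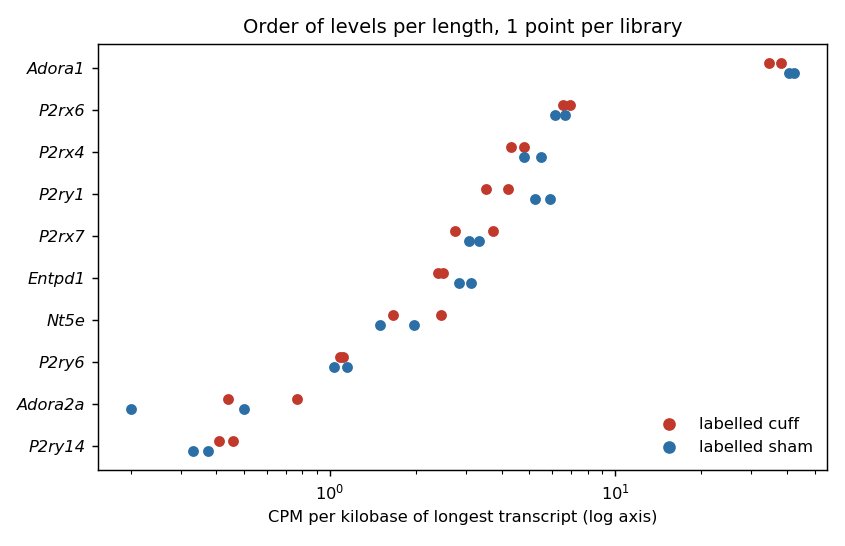
CPM per kilobase of the longest transcript (log axis) of each gene, with 1 point per library and the genes in the order of their means. Adora1 sits at 34.6 to 42.4, apart from the others, and Adora2a and P2ry14 sit below 1.

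Within each class of the system the members took different shares of the level per length. Of the 7 P2X genes, P2rx6 held 26.6% to 27.5% over the 4 libraries, P2rx4 16.5% to 22.6% and P2rx7 11.3% to 14.5%. The largest remaining share was that of P2rx5, at 25.97% to 31.0%. Of the 9 P2Y genes, P2ry1 held 18.6% to 22.6%, P2ry6 3.77% to 6.22% and P2ry14 1.21% to 2.29%, while P2ry12, the ADP receptor that marks microglia, held 51.8% to 60.1%. Adora1 held 88.2% to 91.1% of the 4 adenosine receptors and Adora2a 0.445% to 1.95%.

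Among the enzymes, Entpd1 held 7.26% to 9.69% of the 4 cell surface NTPDases. Entpd3 and Entpd2 were the larger, at 52.2% to 57.9% and 33.4% to 40.4%. Its share was 7.51% and 7.26% in the cuff-labelled libraries and 8.76% and 9.69% in the sham-labelled ones. Nt5e held 33.1% to 39.5% of 3 enzymes that hydrolyse AMP, beside Alpl, the tissue-nonspecific alkaline phosphatase (43.7% to 60.0%), and Acpp, prostatic acid phosphatase (4.88% to 20.6%). The highest share of Acpp was in the second cuff-labelled library.

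The wider purinergic list held 54 genes, of which 45 were tested. None was called in either direction (edgeR, smallest adjusted p = 0.0636, beside 4.11% called of all genes), and the median log2 fold change was 0.01. An unadjusted p under 0.05 was reached by 12 of the 45 (26.7%, beside 21.5% of all tested genes), of which 6 were higher and 6 lower. DESeq2 called 1 (Gja1, -0.45, adjusted p = 0.00626) and limma-voom 0. The filter left out P2rx1, P2ry4, P2ry10, Entpd4, Entpd8, Slc28a1, Slc28a3, Panx3 and Calhm1, with at most 12 counts in any library. Entpd4 has a near-identical copy, so its count is uncertain.

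Some receptors of the list were nearer to the threshold than most members. P2rx3, the ATP-gated channel of sensory neurons, was at 4.30 and 6.83 CPM in the cuff-labelled libraries and at 3.29 and 3.13 in the sham-labelled ones (0.79 ± 0.29, adjusted p = 0.119). P2ry2, a receptor for ATP and UTP that lies 21.1 kb from P2ry6, was at 1.05 and 2.81 against 0.889 and 0.777 CPM (1.21 ± 0.48, adjusted p = 0.157). Both were highest in the second cuff-labelled library. So were 9 of the 12 genes of the ganglion list, of which P2rx3 is itself a member, while Prph, Isl1 and Tac1 were highest in other libraries. Acpp, which also marks nociceptors in ganglia, was at 6.33 CPM there and at 1.09 to 1.62 in the other 3 libraries (adjusted p = 0.308). The ganglion list summed to 169 and 194 CPM in the cuff-labelled libraries and to 163 in each sham-labelled library. Its highest genes were Prph, Calca and Tac1, with mean levels of 80.9, 48.0 and 29.4 CPM. Lower in level, Avil was at 9.23 CPM in the second cuff-labelled library and at 0.445 to 0.749 in the other 3 libraries. Scn11a was at 3.11 there and at 0.207 to 0.222 in the others. Trpv1 instead was at 0.388 and 0.440 CPM in the cuff-labelled libraries (14 and 15 counts) and at 0.052 in each sham-labelled library (2 counts each). The part of this list in the values of P2rx3, P2ry2 and Acpp was not tested. In contrast P2ry12 was at 30.6 and 21.8 CPM in the cuff-labelled libraries and at 38.6 and 30.4 in the sham-labelled ones, with overlap (-0.40 ± 0.18, adjusted p = 0.213).

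Genes of ATP release and of adenosine removal gave the smallest p-values of the list. Gja1, the connexin 43 gene of astrocytes, was at 274 and 259 CPM in the cuff-labelled libraries and at 366 and 355 in the sham-labelled ones (-0.44 ± 0.13, adjusted p = 0.0636). Ada, adenosine deaminase, was at 2.05 and 2.55 against 5.99 and 3.68 CPM (-1.07 ± 0.32, adjusted p = 0.0645). Both sets of groups were separate, and neither gene passed the test. After correction for length and GC, Gja1 was at -0.24 (adjusted p = 0.176, edgeR) and Ada at -1.20 (adjusted p = 0.106). An unadjusted p under 0.05 was reached by 4 of 7 tested ATP release genes, 2 higher and 2 lower. It was reached by 3 of 9 tested genes of adenosine transport and removal, 2 higher and 1 lower. Gjb2, an ATP release gene, was higher (0.72 ± 0.24, adjusted p = 0.0902). The pannexin gene Panx2 (0.15 ± 0.13) and Adk, the adenosine kinase gene (-0.25 ± 0.14), had adjusted p of 0.521 and 0.329, and the transporter gene Slc29a3 had a log2 fold change of -0.07 ± 0.13 (adjusted p = 0.82). Among the nucleotide-degrading enzymes of the list, Enpp2 had the highest CPM and a log2 fold change of -0.32 ± 0.15 (adjusted p = 0.231). Entpd5, which is not among the 4 cell surface NTPDases given above, had one of -0.06 ± 0.14 (adjusted p = 0.832). Adora2b, the adenosine receptor second to Adora1 in level per length, had one of 0.01 ± 0.22 (adjusted p = 0.991), and Adora3 one of 0.09 ± 0.57 (adjusted p = 0.945).

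Without the first cuff-labelled library, 7 of the tested genes of the list were called, beside 11.1% of all genes. These were P2rx3 (1.03), P2ry2 (1.70), Acpp (2.17), Gjb2 (0.83) and Slc28a2 (2.37), which were higher, and P2ry1 (-0.72) and P2ry12 (-0.72), which were lower. That fit sets the second cuff-labelled library by itself against both sham-labelled libraries. For the median gene its spread comes wholly from what is shared across genes, so these calls hold little of each gene's own spread. Without that second library 0 genes of the list were called, where 1.24% of all genes were.

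**Figure D5:**
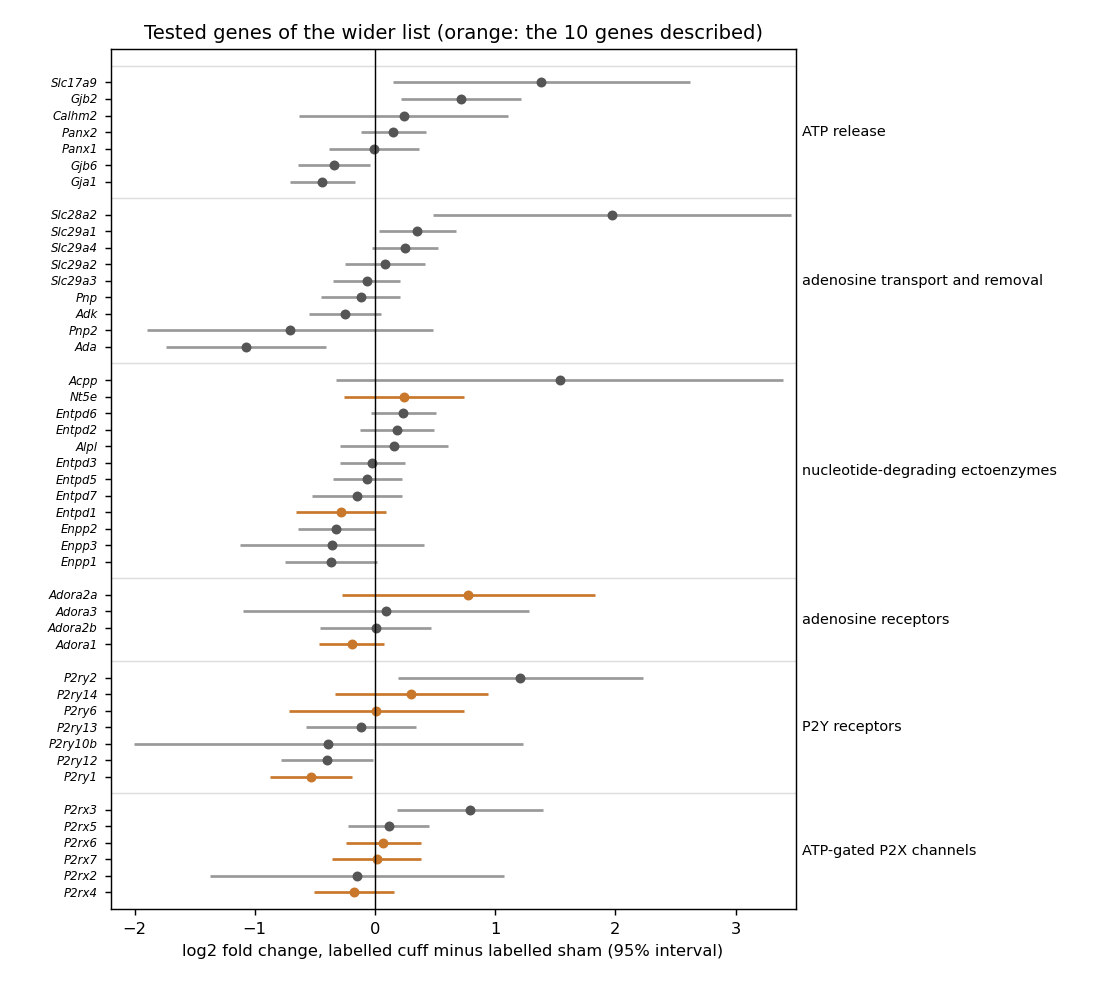
Log2 fold change, labelled cuff minus labelled sham, with 95% intervals for the 45 tested genes of the wider purinergic list, by role, with the 10 genes described in orange. No gene passed an adjusted p of 0.05, and Gja1, Ada and P2ry1 had the smallest adjusted p (0.0636, 0.0645 and 0.0698).

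The genes whose pattern over the 4 libraries was most like that of P2ry1 were Zfp595, Grm3 and Ranbp6. Likeness is the Euclidean distance between log2 CPM values centred on each gene's mean, and it was 0.024, 0.026 and 0.032. Grm3, a metabotropic glutamate receptor gene, was at 25.5 and 21.2 CPM in the cuff-labelled libraries and at 34.9 and 31.5 in the sham-labelled ones. For Entpd1 the nearest were Ctbp2, Cldn12 and Cep135 (0.019 to 0.024), and for Adora2a Lama4, Sp100 and Sostdc1 (0.111 to 0.115). These distances rest on 4 libraries.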

How the data were processed

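Each deposited file gives, for 1 library, a raw count for every Entrez gene identifier without normalization, as its whole-number values and header show. The submitters' processing notes name Trimmomatic 0.30 for trimming, HISAT2 2.0.1 for alignment, build mm10 and featureCounts for counting. The annotation, strand setting and unit counted (reads or pairs) are, in the sources used here, not given. In 1 file a literal backslash and letter stood where the tab belongs, and lines were split at it. RefSeq genes of GRCm38.p6 (the mm10 assembly) supplied symbols and 1-based coordinates for 25275 of 27179 identifiers (18 more through GENCODE M21). Transcript lengths and strands came from GENCODE M21.

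The software was edgeR 4.0.16, DESeq2 1.42.0 and limma 3.58.1 under R 4.3.3. After filterByExpr by group, 16918 genes were scaled by TMM and compared with edgeR's quasi-likelihood test (robust, two-sided, group only), adjusted by Benjamini-Hochberg over all of them. CPM are counts relative to the total of the tested genes after TMM scaling. Standard errors come from the size of the coefficient over the root of F, and 95% intervals use the fit's total degrees of freedom. The steps were tested on simulated data. Within each group the 2 libraries differed beyond counting noise (chi-square over degrees of freedom 24.2 for cuff and 34.9 for sham). Against the sham-labelled libraries this was 29.9 and 36.6 for the first cuff-labelled library and 69.1 and 61.7 for the second.

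All 10 members are named. Of the wider list, the text names called genes, genes left out by the filter and up to 2 others of each role by CPM, and of the marker lists up to 3 genes by CPM. Other genes were named after their values were seen. For the 3 members with the smallest p, the 3 genes nearest in pattern are named. The members, lists and gene classes were chosen with earlier results of these data known. The alternatives were 2 other scalings, 2 other tests, 2 other filters, the replicate number as a block, a correction for transcript length and GC content (local regression, span 0.3, over 15465 genes), that correction with the block, and each library left out.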

Additional observations from a re-analysis of the deposited data

How the results depend on the processing

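Of 130 member values (10 genes under 13 alternatives), 112 kept their sign and their side of the threshold. The 3 that crossed it were P2ry1 with no filter (-0.53) and without the first cuff-labelled library (-0.72), and Adora1 with the length and GC correction and the replicate block (-0.30), so that 1 member was called in each of these fits. Another 15 values, of P2rx7, P2rx6, P2ry6 and Nt5e, changed sign. P2rx7 was at -0.0016 with RLE scaling, -0.0016 with DESeq2 and -0.0044 with limma-voom. P2ry6 was at -0.0040 with RLE scaling and with DESeq2. With the length and GC correction, alone and with the replicate block, P2ry6 was at -0.18 in both fits and P2rx6 at -0.098 and -0.096. With single libraries left out, P2rx7 ran from -0.23 to 0.17, P2ry6 from -0.078 to 0.082, Nt5e from -0.061 to 0.45 and P2ry1 from -0.72 to -0.41. The cause was not tested.

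Of the wider list 0 genes were called in the main test, 1 with DESeq2, 3 with no filter (Gja1, Ada and P2ry1), 2 with the length and GC correction and block (Adora1 and Gjb6) and from 0 to 7 with single libraries left out. Over all genes, 696 were called (195 higher, 501 lower), 1086 with DESeq2, 1292 with no filter, 59 with the length and GC correction (22 higher, 37 lower), 516 with that correction and the replicate block (266 higher, 250 lower) and from 0 to 1928 with single libraries left out, where the lone library of a group is assumed to vary like the other group. With the replicate number as a block 554 genes were called (245 higher, 309 lower), and 0 members. The labels give the libraries a shared number and no shared animal or day, and same-numbered libraries deviated together weakly (r = 0.12 across genes, 2 pairs). Another scaling moved the median of all genes by under 0.1 (log2). P2ry6, P2ry14 and Adora2a had the fewest counts of the members. Their 95% intervals reach past a 1.5-fold change, as do those of P2ry1, Entpd1 and Nt5e.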
